A study of Mus musculus with 12 samples.

Results

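Immediate early genes and heat shock genes were followed in sorted sensory neurons of the mouse dorsal root ganglion (DRG). The 34 genes were chosen by name, 25 of them immediate early or early response genes and 9 of them chaperones of the heat shock class. All 34 had a row among the 41388 Ensembl genes of the deposited tables. They were set against each other between ganglia L6S1 and ganglia L345, as a possible trace of the stress of dissociation. No library of undissociated ganglia was analysed here, so the levels below cannot be split into what was present in the animal and what arose during handling.

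The mice were C57BL/6, aged 3 months, with a RetFloxedEGFP allele and Scn10a tm2(cre)Jnw, a Cre recombinase placed in the gene of the nociceptor sodium channel NaV1.8. Per the labels, both alleles were shared by all groups, although the genotype field of 4 libraries names only one of them. In such mice EGFP is made from the Ret locus only where Cre has acted, and there it takes the place of Ret on the recombined allele. Sorted cells are therefore neurons with a history of NaV1.8 expression and an active Ret locus, and not all nociceptors. Whether the mice also carried a working copy of Ret was not examined here. The 4 groups of 3 libraries were male L6S1 (libraries A to C) and female L6S1 (A to C), made of ganglia L6 and S1, and male L345 (A to C) and female L345 (B to D), made of ganglia L3, L4 and L5. Each library came from a pool of 2 to 8 mice and 12 to 32 ganglia, so differences between single mice are not seen. The 4 libraries male L6S1 C, female L6S1 B, female L6S1 C and female L345 D carry another form of title and are called the second submission here.

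Immediate early genes are transcribed within minutes of a stimulus without new protein synthesis. Their products include the AP-1 factors Fos and Jun, the EGR and NR4A factors, and feedback regulators that end the signal or destroy the RNA. Heat shock genes are driven by heat shock factor when proteins unfold and encode chaperones that refold them. Both programmes are known to start when tissue is minced, warmed with enzymes and sorted, and in sensory neurons several early genes also follow activity or nerve injury.

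Total counts were 16176436 to 26694404 per library, and 3 counts, the floor used here, corresponded to 0.112 to 0.185 CPM (reads of a gene scaled to the library total). Values below are CPM scaled by trimmed mean of M values (TMM). Of the 34 genes, 31 passed the filter on low counts. Scn10a lay at 359 to 540 CPM in L6S1 and 453 to 678 CPM in L345, and Ret at 137 to 230 CPM in L6S1 and 135 to 201 CPM in L345, so both genes that define the sort were present in every library. Female L6S1 libraries B and C stood apart: they were the lowest of all 12 libraries in 23.6% and 21.3% of genes tested, against 2.62% to 8.44% for the others. Glial markers summed to 4093 to 4981 CPM in L6S1 and 3906 to 4584 CPM in L345, and none of the 12 was called, with Sox10 at 2.13 to 3.98 CPM in L6S1 and 2.59 to 4.10 CPM in L345. Fibroblast markers summed to 128 to 337 CPM in L6S1 and 73.1 to 99.0 CPM in L345, led by Dcn, and 1 of 8 tested rose. Immune markers summed to 6.21 to 61.3 CPM in L6S1, the top being female L6S1 C, and to 3.30 to 4.19 CPM in L345. Endothelial markers summed to 17.1 to 47.7 CPM in L6S1 and 16.7 to 26.6 CPM in L345, and mural markers to 218 to 419 CPM in L6S1 and 216 to 319 CPM in L345; Cldn5 of endothelium and Myh11 of mural cells reached 0 in at least 1 library. In pooled cells, fewer cells of a type and less RNA per cell cannot be told apart.

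Between levels, the inducible Hsp70 genes Hspa1a and Hspa1b were the 2 of 31 tested genes that differed, and both fell in L6S1. None rose. The AP-1 genes, the EGR and NR4A factors and the feedback regulators gave no call in edgeR (3 of 22 early genes had an unadjusted p under 0.05, and DESeq2 called 1, Dusp1). Their median change of -0.07 (log2) stood beside a median of -0.06 over all genes tested. Over all genes, 356 of 15281 were called, which is 2.33% (higher 1.45%, lower 0.877%), by edgeR's quasi-likelihood test at a Benjamini-Hochberg adjusted p under 0.05. Of the 31, 8 had an unadjusted p under 0.05, where the share over all genes was 26.6%. These counts rested on single libraries, as did those over all genes. Without female L6S1 A, 9 of the 31 were called (1 higher, 8 lower), among 4031 of 15683 genes in all. Without male L345 A, male L345 C or female L345 C, 0 of the 31 were called. In these fits 90 of 15708, 84 of 15703 and 83 of 15680 genes were called in all.

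**Figure D1:**
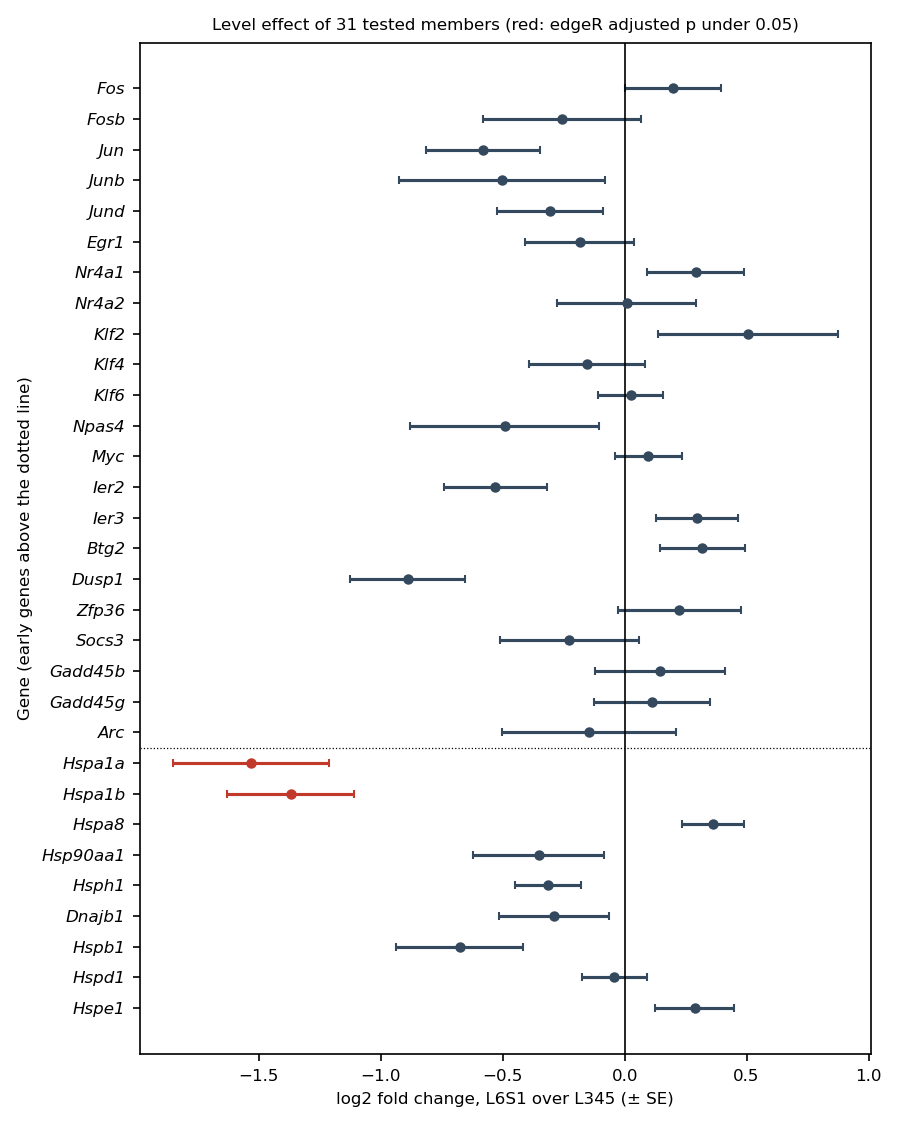
Level effect of the 31 tested genes, as log2 fold change of L6S1 over L345 with its SE (horizontal axis), immediate early genes above the dotted line and heat shock genes below it. Hspa1a at -1.53 and Hspa1b at -1.37, in red, lay below the threshold on the adjusted p; the other 29 spread from -0.89 (Dusp1) to 0.50 (Klf2).

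Hspa1a and Hspa1b are neighbouring genes on chromosome 17 that encode the same kind of Hsp70 chaperone, nearly silent in unstressed cells and strongly induced by heat shock factor. Hspa1a lies at chr17:34969190-34972156 and Hspa1b at chr17:34956436-34959238, both on the minus strand of GRCm38. The 250 bases upstream of each start are printed here, from RefSeq (GRCm38.p6, minus strand, chr17:34972157-34972406 and chr17:34959239-34959488), since these are the genes that differed and their control regions are almost the same. Capitals mark a heat shock element core of the form GAANNTTC.
Hspa1a: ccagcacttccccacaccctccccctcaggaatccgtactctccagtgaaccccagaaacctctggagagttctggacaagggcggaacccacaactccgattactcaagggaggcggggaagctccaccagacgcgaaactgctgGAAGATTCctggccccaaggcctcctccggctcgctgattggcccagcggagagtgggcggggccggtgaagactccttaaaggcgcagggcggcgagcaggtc
Hspa1b: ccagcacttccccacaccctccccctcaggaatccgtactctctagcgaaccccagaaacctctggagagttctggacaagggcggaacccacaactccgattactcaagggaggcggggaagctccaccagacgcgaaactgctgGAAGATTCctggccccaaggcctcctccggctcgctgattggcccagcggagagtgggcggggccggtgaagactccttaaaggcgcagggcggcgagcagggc
The pair matched in 247 of 250 bases, and the core began 104 bases before the start in each.

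Hspa1a had 8.18, 2.75 and 5.04 CPM in male L6S1 and 3.42, 2.52 and 1.802 CPM in female L6S1, against 13.9, 9.74 and 12.3 CPM in male L345 and 3.79, 14.1 and 10.7 CPM in female L345. All 3 male L6S1 libraries lay under all 3 male L345 libraries, and all 3 female L6S1 libraries under all 3 female L345 libraries. Across the sexes the levels overlapped through female L345 B, which at 3.79 CPM lay below male L6S1 A and male L6S1 C. The means were 3.95 ± 2.34 CPM in L6S1 and 10.8 ± 3.83 CPM in L345 (SD, n = 6 each), a log2 fold change of -1.53 ± 0.32 (SE, edgeR adjusted p = 0.0293). Reads of 43 to 362 per library stood behind these values, so counting error alone was small beside the spread between libraries.

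Hspa1b had 2.82, 1.44 and 2.29 CPM in male L6S1 and 0.854, 1.69 and 0.922 CPM in female L6S1, against 4.34, 3.15 and 4.66 CPM in male L345 and 2.47, 5.51 and 4.68 CPM in female L345. As for its neighbour, each sex separated and female L345 B was the low L345 library, below male L6S1 A. The log2 fold change was -1.37 ± 0.26 (SE, edgeR adjusted p = 0.018), and for both genes 6 of 6 L6S1 libraries were under the L345 average of the matching sex.

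The 2 genes share much of their sequence, so their reads may have been divided between them by the counting. Of 50-base windows of the transcripts, 58.8% of Hspa1a and 62.3% of Hspa1b were shared, and the aligned part was 90.7% identical. Summed into 1 row, a choice made after seeing the data, the pair had 10.996, 4.19 and 7.33 CPM in male L6S1 and 4.27, 4.22 and 2.72 CPM in female L6S1, against 18.2, 12.9 and 17.0 CPM in male L345 and 6.26, 19.7 and 15.3 CPM in female L345. The sum fell by 1.49 ± 0.28 on the log2 scale (edgeR adjusted p = 0.019). Hspa1b gave 20.0% to 40.2% of the sum in L6S1 and 23.8% to 39.5% in L345, so the split itself did not separate the levels.

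The call depended on the libraries and the terms used. Hspa1a lost it in 6 of 12 alternatives, with adjusted p of 0.083 by limma-voom, 0.083 with a submission term, 0.321 in the first submission alone and 0.051 with GC content and length offsets, where Hspa1b had 0.049. With the summed glial marker level as a covariate, the fold changes were -1.62 for each gene with adjusted p = 0.16 for Hspa1a and 0.0604 for Hspa1b. Without female L6S1 B and C, Hspa1a gave -1.33 with adjusted p = 0.218 and Hspa1b stayed called with adjusted p = 0.0299. Leaving out male L345 A, male L345 C or female L345 C ended both calls, with edgeR adjusted p of 0.056 to 0.0846. The changes in these fits were -1.33 to -1.52 for Hspa1a and -1.25 to -1.35 for Hspa1b. Leaving out male L6S1 B, male L6S1 C, female L6S1 B or female L6S1 C ended the call of Hspa1a, with adjusted p of 0.0547 to 0.0712. The sign was negative in each of the 24 alternatives, at -1.18 to -1.76 for Hspa1a and -1.02 to -1.62 for Hspa1b. The fibroblast and immune sums given above also lay apart between the levels, and their part in the fall of the pair was not tested.

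**Figure D2:**
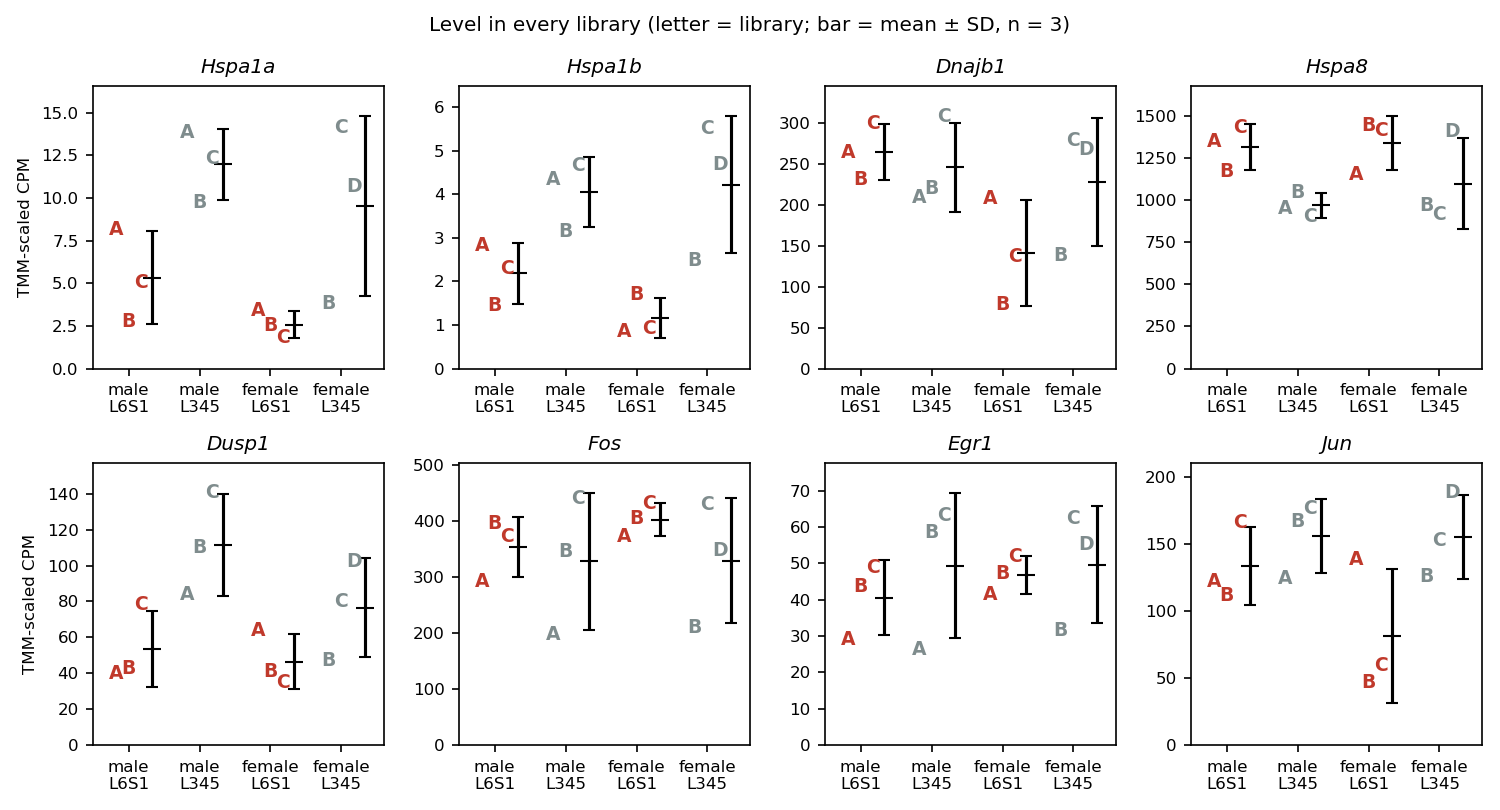
TMM-scaled CPM of 8 genes in every library (letters) with mean ± SD of each group of 3, L6S1 in red and L345 in grey, on a separate vertical axis from 0 for each gene. Within each sex the L6S1 letters of Hspa1a and Hspa1b lie below the L345 letters, whereas those of Fos, Egr1 and Dnajb1 overlap; male L345 A and female L345 B are the low letters of their groups for Fos and Egr1.

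Of the other cytosolic chaperones, none passed the test, and they did not share a direction. Hspa8 is the constitutive Hsp70 of the cell, which works without a stress signal. It had 1346, 1167 and 1431 CPM in male L6S1 and 1153, 1443 and 1413 CPM in female L6S1, against 952, 1046 and 904 CPM in male L345 and 969, 914 and 1408 CPM in female L345. Every L345 library except female L345 D lay below every L6S1 library. Its log2 fold change was 0.36 ± 0.13 (SE, edgeR adjusted p = 0.104), of the opposite sign to that of the inducible pair. It was called in 4 other fits, with limma-voom (adjusted p = 0.0136), a replicate block (0.029), female L6S1 A left out (0.025) or female L345 D left out (0.038), at 0.41 to 0.49 on the log2 scale. With the glial covariate it was 0.17.

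Hsph1, an Hsp110 protein that exchanges the nucleotide of Hsp70, had a lowest, median and highest value of 114, 185 and 202 CPM in L6S1 and 178, 210 and 219 CPM in L345, and its change was -0.32 ± 0.14 (edgeR adjusted p = 0.162). Hspb1 encodes Hsp27, a small heat shock protein abundant in sensory neurons and raised after axon injury. It had 7.21, 20.9 and 28.01 CPM in L6S1 and 20.7, 29.2 and 35.3 CPM in L345, a change of -0.68 ± 0.26 (adjusted p = 0.129). The 7.21 and 9.18 CPM of female L6S1 B and C were the low ends for Hspb1, and 124 and 114 CPM in the same libraries were the low ends for Hsph1. Both genes were called by limma-voom (adjusted p = 0.0086 for Hspb1 and 0.024 for Hsph1) and without female L6S1 A, at -1.10 and -0.47 (adjusted p = 0.00011 and 0.0037). With female L6S1 B and C left out the changes were -0.22 and -0.09.

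Dnajb1, the Hsp40 partner of inducible Hsp70 and itself a heat shock factor target, had 265, 231 and 300 CPM in male L6S1 and 208, 78.9 and 138 CPM in female L6S1, against 210, 220 and 309 CPM in male L345 and 138, 279 and 267 CPM in female L345. The male libraries of both levels overlapped fully, and female L6S1 B was the lowest of all 12. The change was -0.29 ± 0.23 (edgeR adjusted p = 0.412). Hsp90aa1, the inducible cytosolic Hsp90, ranged over 59.5 to 228 CPM in L6S1 and 156 to 312 CPM in L345, with a change of -0.35 ± 0.27 (adjusted p = 0.402).

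The mitochondrial chaperonin is built of Hspd1 (Hsp60) and its lid Hspe1 (Hsp10), which are transcribed from a shared region in opposite directions on chromosome 1. Hspd1 had 97.4, 152 and 168 CPM in L6S1 and 140, 147 and 161 CPM in L345. Hspe1 had 45.03, 58.8 and 69.7 CPM in L6S1 and 39.7, 43.0 and 65.0 CPM in L345. Neither differed past the threshold, with changes of -0.04 ± 0.13 and 0.29 ± 0.16 (edgeR adjusted p = 0.852 and 0.261). Limma-voom called Hspe1 (0.46, adjusted p = 0.036), and its change was 0.08 with female L6S1 B and C left out. Their annotated exons overlap by 112 bases on opposite strands, and whether the counting used strand is not known here.

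None of the 5 AP-1 genes passed the test, and 4 of them had a negative change. Of these 4, Fosb was 0.06 with limma-voom, Jund 0.43 with GC content and length offsets, and Junb 0.06 with female L6S1 B and C left out. Fos, the partner of Jun in AP-1 and the usual marker of a recently stimulated neuron, had 293, 396 and 373 CPM in male L6S1 and 372, 405 and 432 CPM in female L6S1, against 197, 347 and 441 CPM in male L345 and 210, 431 and 348 CPM in female L345. The L6S1 libraries lay inside the range of the L345 libraries. The means were 379 ± 47.3 CPM in L6S1 and 329 ± 105 CPM in L345 (SD, n = 6 each), a log2 fold change of 0.20 ± 0.20 (SE, edgeR adjusted p = 0.525).

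Jun, which also marks injured sensory neurons, had 122, 112 and 166 CPM in male L6S1 and 139, 46.3 and 59.4 CPM in female L6S1, against 125, 167 and 176 CPM in male L345 and 125, 153 and 188 CPM in female L345. Only female L6S1 B and C lay far below the rest. Its change was -0.58 ± 0.23 (edgeR adjusted p = 0.145). It was called without female L6S1 A (-0.89, adjusted p = 0.0018) and by limma-voom (adjusted p = 0.044), and was -0.20 with female L6S1 B and C left out. Exons of the antisense transcript Junos overlap it by 232 bases with 202 counts in all 12 libraries together, against 37522 for Jun. Junb, which pairs with Fos family members, had 3.17, 14.8 and 41.3 CPM in L6S1 and 14.0, 20.9 and 33.1 CPM in L345, and a change of -0.50 ± 0.42 (adjusted p = 0.449), or -1.14 without female L6S1 A (adjusted p = 0.019). Fosb ranged over 15.9 to 39.5 CPM in L6S1 and 13.5 to 54.6 CPM in L345, and Jund over 4.96 to 11.2 CPM in L6S1 and 6.51 to 13.1 CPM in L345, with adjusted p of 0.6253 and 0.371.

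Of the other early transcription factors, 8 of 10 were tested, 5 with a positive and 3 with a negative change, and none was called. Egr1, a zinc finger factor induced through serum response factor, had 29.1, 43.6 and 48.9 CPM in male L6S1 and 41.5, 47.2 and 51.9 CPM in female L6S1, against 26.4, 58.6 and 63.2 CPM in male L345 and 31.5, 62.2 and 55.3 CPM in female L345. The 4 high L345 libraries lay above every L6S1 library and the remaining 2 among the lowest, so the mean hid a split within L345. The change was -0.18 ± 0.22 (edgeR adjusted p = 0.609). Klf2, a factor best known in endothelium and T cells, had 0.793, 1.198 and 3.14 CPM in L6S1 and 0.562, 0.930 and 1.73 CPM in L345. Its change was the most positive of the 31, at 0.50 ± 0.37 (adjusted p = 0.38), and its top library, female L6S1 C, also held the most endothelial markers (47.7 CPM summed, against 17.1 to 30.9 CPM in the other L6S1 libraries) and immune markers. Their part in the Klf2 value was not tested. Without female L6S1 B and C the change of Klf2 was -0.01.

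Npas4, induced in neurons by depolarisation and calcium entry and hardly by other stimuli, had 0.261, 2.08 and 3.65 CPM in L6S1 and 0.937, 2.64 and 3.19 CPM in L345. It was above the floor of 3 counts in each library, with 6 to 97 reads, and its change was -0.49 ± 0.39 (edgeR adjusted p = 0.418). The remaining 5 tested genes of this class (Nr4a1, Nr4a2, Klf4, Klf6 and Myc) had log2 fold changes of -0.16 to 0.29. Egr3 and Nr4a3 failed the filter, with over 3 reads in 1 and 4 of the 12 libraries. Arc, a neuronal cytoskeletal protein of active synapses, had 0.522, 3.49 and 5.19 CPM in L6S1 and 2.06, 3.77 and 4.95 CPM in L345, a change of -0.15 ± 0.36 (adjusted p = 0.807).

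Among the feedback and growth regulators, Dusp1 came closest to a call. It encodes a phosphatase that switches off stress-activated MAP kinases and is induced by CREB as well as by stress. The 250 bases upstream of its start (RefSeq, GRCm38.p6, minus strand, chr17:26508473-26508722) and those of Fos (plus strand, chr12:85473640-85473889) are shown, since Dusp1 came nearest to a difference and Fos had the highest level per length of the early genes. Capitals mark a cAMP response element, TGACGTCA, in Dusp1 and a TATA box, TATAAA, in Fos, which began 143 and 33 bases before the start.
Dusp1: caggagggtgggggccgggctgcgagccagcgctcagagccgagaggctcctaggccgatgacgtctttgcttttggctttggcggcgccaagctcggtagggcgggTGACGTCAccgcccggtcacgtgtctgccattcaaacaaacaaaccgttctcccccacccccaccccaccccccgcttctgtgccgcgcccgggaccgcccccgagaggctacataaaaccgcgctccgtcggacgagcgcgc
Fos: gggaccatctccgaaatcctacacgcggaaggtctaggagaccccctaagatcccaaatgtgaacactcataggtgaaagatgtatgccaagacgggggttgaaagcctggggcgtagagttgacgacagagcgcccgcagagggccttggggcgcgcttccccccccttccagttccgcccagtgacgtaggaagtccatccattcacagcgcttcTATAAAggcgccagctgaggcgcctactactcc
Dusp1 had 39.97, 42.4 and 78.05 CPM in male L6S1 and 63.8, 41.0 and 34.8 CPM in female L6S1, against 83.7, 110 and 141 CPM in male L345 and 47.3, 80.1 and 102 CPM in female L345. The males separated, but in females L6S1 A lay above L345 B. The medians were 41.7 CPM in L6S1 and 93.1 CPM in L345 (n = 6 each), and the fitted change was -0.89 ± 0.23 on the log2 scale (SE, edgeR adjusted p = 0.0596). Each of the 6 L6S1 libraries was under the L345 average of the matching sex. It was called by DESeq2 (adjusted p = 0.0083), with GC content and length offsets (0.047), without female L6S1 A (0.0065) and without male L6S1 C (0.044). These were the only fits that called it over both sexes. With female L6S1 B and C left out its change was -0.67 (edgeR adjusted p = 0.327). The glial covariate gave -0.76 (adjusted p = 0.46) and a submission term -0.97 (adjusted p = 0.102).

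Ier2, a small nuclear early response protein, had 15.4, 11.1 and 17.3 CPM in male L6S1 and 8.73, 3.52 and 5.36 CPM in female L6S1, against 9.81, 16.2 and 13.5 CPM in male L345 and 11.2, 13.7 and 15.5 CPM in female L345. The male libraries mixed and the female libraries separated. The change over both sexes was -0.53 ± 0.21 (edgeR adjusted p = 0.14), or -0.72 without female L6S1 A (adjusted p = 0.014) and -0.24 without female L6S1 B and C. The other 6 tested regulators (Ier3, Btg2, Zfp36, Socs3, Gadd45b and Gadd45g) had log2 fold changes of -0.23 to 0.32, with adjusted p of 0.25 to 0.775. They include Zfp36, which destroys AU-rich cytokine RNAs, and Socs3, which ends cytokine signalling. Ier5 failed the filter at 1 to 14 reads per library.

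No gene of the 31 had non-overlapping groups of 6 and 6 libraries, where 3.24% of all genes tested did (1.22% with L6S1 the lower). The heat shock class as a whole had a median change of -0.32, with 2 of 9 positive, and the immediate early class -0.07, with 11 of 22 positive. That of the heat shock class was -0.09 with female L6S1 B and C left out, -0.11 in the first submission alone, -0.12 with the glial covariate and -0.48 without female L6S1 A. Of 45 tested further early response genes, 0 were called by edgeR, with 8 at an unadjusted p under 0.05 and a median of -0.09. Of 39 tested further cytosolic chaperones, co-chaperones and their regulators, 0 were called, with 6 at an unadjusted p under 0.05 and a median of -0.03. Of 28 tested chaperones and stress response genes of the endoplasmic reticulum and mitochondria, 0 were called, with 9 at an unadjusted p under 0.05 and a median of -0.06. This last list also holds genes that are not chaperones, among them Atf4, Ddit3, Xbp1, Asns and the proteases Clpp and Lonp1.

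Within each sex edgeR called 0 of the 31, where it called 0.36% of all genes in females and 0.222% in males. At an unadjusted p under 0.05 there were 9 of the 31 in females, where 24.0% of all genes were, and 4 in males, against 8.83% of all genes. DESeq2 called 3 of the 31 in females (of 752 among 13590 genes) and 0 in males (of 96 among 18594). In females Hspa1b came closest, at -1.85 ± 0.38 (edgeR adjusted p = 0.0544), and Hspa1a had -1.90 ± 0.46 (adjusted p = 0.107). In males Hspa1a had -1.17 ± 0.44 (adjusted p = 0.527) and Hspa1b -0.89 ± 0.36 (adjusted p = 0.55). The difference between the sexes was itself tested, and neither gene passed, at -0.73 ± 0.63 and -0.96 ± 0.52 (interaction adjusted p = 0.887 and 0.871).

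Of all 31 genes, 0 had an interaction past the threshold by edgeR, as had 0.0% of all genes, and 1 had an unadjusted interaction p under 0.05, where 4.67% of all genes did. That gene was Ier2, with a change of -1.21 ± 0.31 in females and 0.15 ± 0.30 in males, a difference of -1.36 ± 0.43 (adjusted p = 0.871). Junb had a change of -1.14 in females and 0.13 in males, and Npas4 had -1.14 in females and 0.16 in males. These 3 genes were each lowest in female L6S1 B. Between females and males over both levels, 0 of the 31 were called, as against 0.0589% of all genes, and 3 had an unadjusted p under 0.05, where 5.96% of all genes did, all lower in females: Ier2 at -0.65, Hspa1a at -0.69 and Dnajb1 at -0.51 (adjusted p = 0.764 each).

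**Figure D3:**
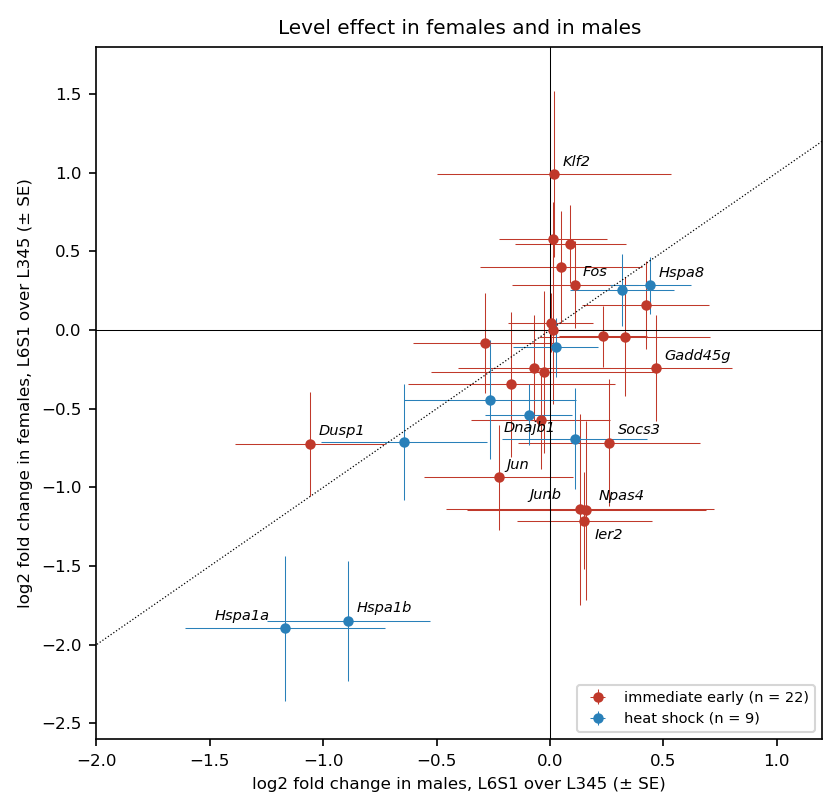
Level effect in females (vertical axis) against that in males (horizontal axis), both as log2 fold change of L6S1 over L345 ± SE, for 22 immediate early genes in red and 9 heat shock genes in blue, with the line of equality dotted. Hspa1a and Hspa1b are negative in both sexes, and Junb, Npas4 and Ier2 lie at -1.14 to -1.21 in females and at 0.13 to 0.16 in males.

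Within the L345 groups, the early genes were low together in 1 library of each sex. Male L345 A was the lowest of its group of 3 in 21 of 22 tested early genes, and female L345 B was the lowest of its group in 21 of 22. Over all genes tested these libraries were the lowest of their group in 27.9% and 30.5%. The median difference of the early genes from the mean of the other libraries of the group, on the log2(CPM + 0.5) scale, was -0.56 in male L345 A and -0.70 in female L345 B, where over all genes it was -0.01 in each. The exceptions were Arc in male L345 A, at 4.95 CPM the highest of its group, and Jund in female L345 B, at 7.12 CPM against 7.07 CPM in library C. Fosb had 13.5 CPM in male L345 A and 42.8 and 54.6 CPM in B and C, a difference of -1.799 that was the most negative of all 15281 genes in that library.

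Of the heat shock genes, male L345 A was lowest of its group in 3 of 9 and female L345 B in 4 of 9. For Hspa1a the 2 libraries differed from each other, at 13.9 CPM, the highest of its group, in male L345 A and 3.79 CPM in female L345 B. Among the 45 further early response genes, the same libraries were the lowest of their group in 29 and 32, and among the 39 further cytosolic chaperones in 11 and 17. In L6S1, male A was lowest of its group in 12 of 22 early genes (28.5% of all genes) and highest in 0, with a median difference of -0.39. Female L6S1 B was lowest in 12 as well (35.8% of all genes), with a median of -0.53, and male L6S1 C was highest in 15 (35.6% of all genes). The pools of male L345 A and female L345 B held 30 and 18 ganglia of 5 and 3 mice, with 20758857 and 26182799 counts, inside the range of the other libraries, and both belong to the first submission. Their glial sums were 4477 and 4010 CPM, within the L345 range. The part of any handling difference in this pattern was not tested, since the labels record no time or temperature per library.

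**Figure D4:**
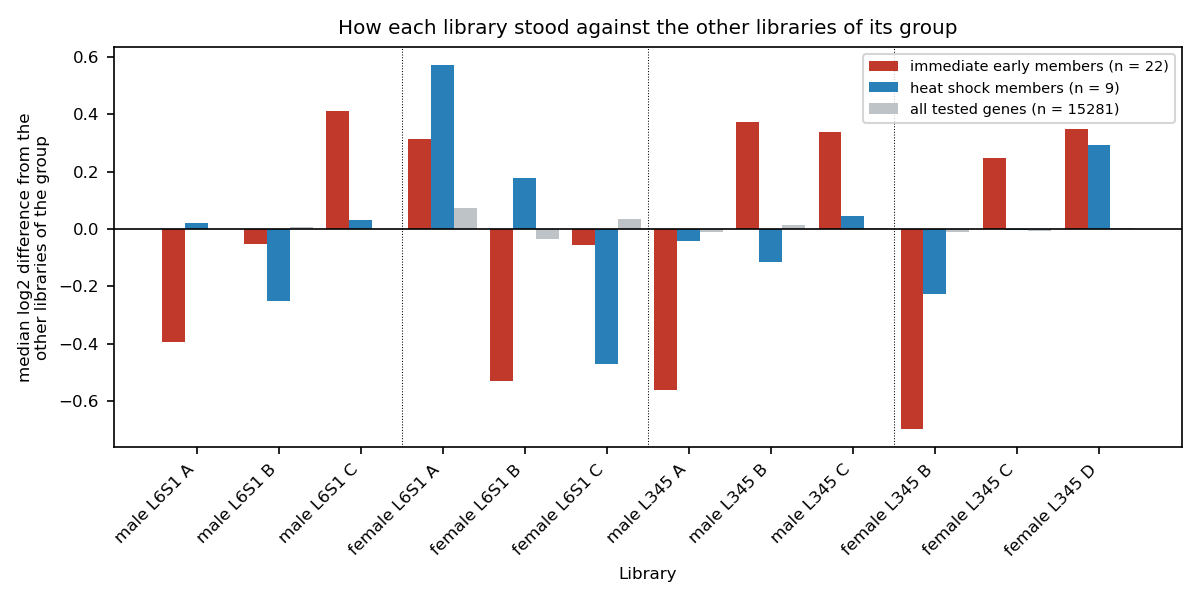
Median log2 difference of each library from the mean of the other libraries of its group, for 22 immediate early genes (red), 9 heat shock genes (blue) and all 15281 genes tested (grey). The red bars of male L345 A and female L345 B reach -0.56 and -0.70, while their blue bars are -0.04 and -0.23.

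Leaving out either library left the level comparison of the early genes without a call. Over all genes, 90 of 15708 were called without male L345 A and 80 of 15675 without female L345 B. The change of Fos was 0.07 without male L345 A and 0.08 without female L345 B, against 0.20 with all libraries, and that of Egr1 was -0.34 and -0.31, against -0.18. The median of the early genes was -0.07 and -0.19 in these fits.

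Female L6S1 B and C held the low ends of further genes. Library B was the lowest of all 12 in 10 of the 31 genes, among them Jun, Junb, Ier2, Npas4, Arc and Dnajb1, where it was the lowest in 23.6% of all genes tested. Library C was so in 6, among them Dusp1, Hspa1a, Hsph1 and Hsp90aa1, against 21.3% of all genes. At the same time female L6S1 C was the highest of all 12 in Nr4a1 (39.97 CPM), Klf2 (3.14 CPM), Ier3 (116 CPM) and Zfp36 (101 CPM), 4 of the 31, as it was in 20.7% of all genes. Markers of large myelinated neurons summed to 241 and 221 CPM in these libraries and to 493 to 746 CPM in the other L6S1 libraries. The part of cell composition was not tested.

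**Figure D5:**
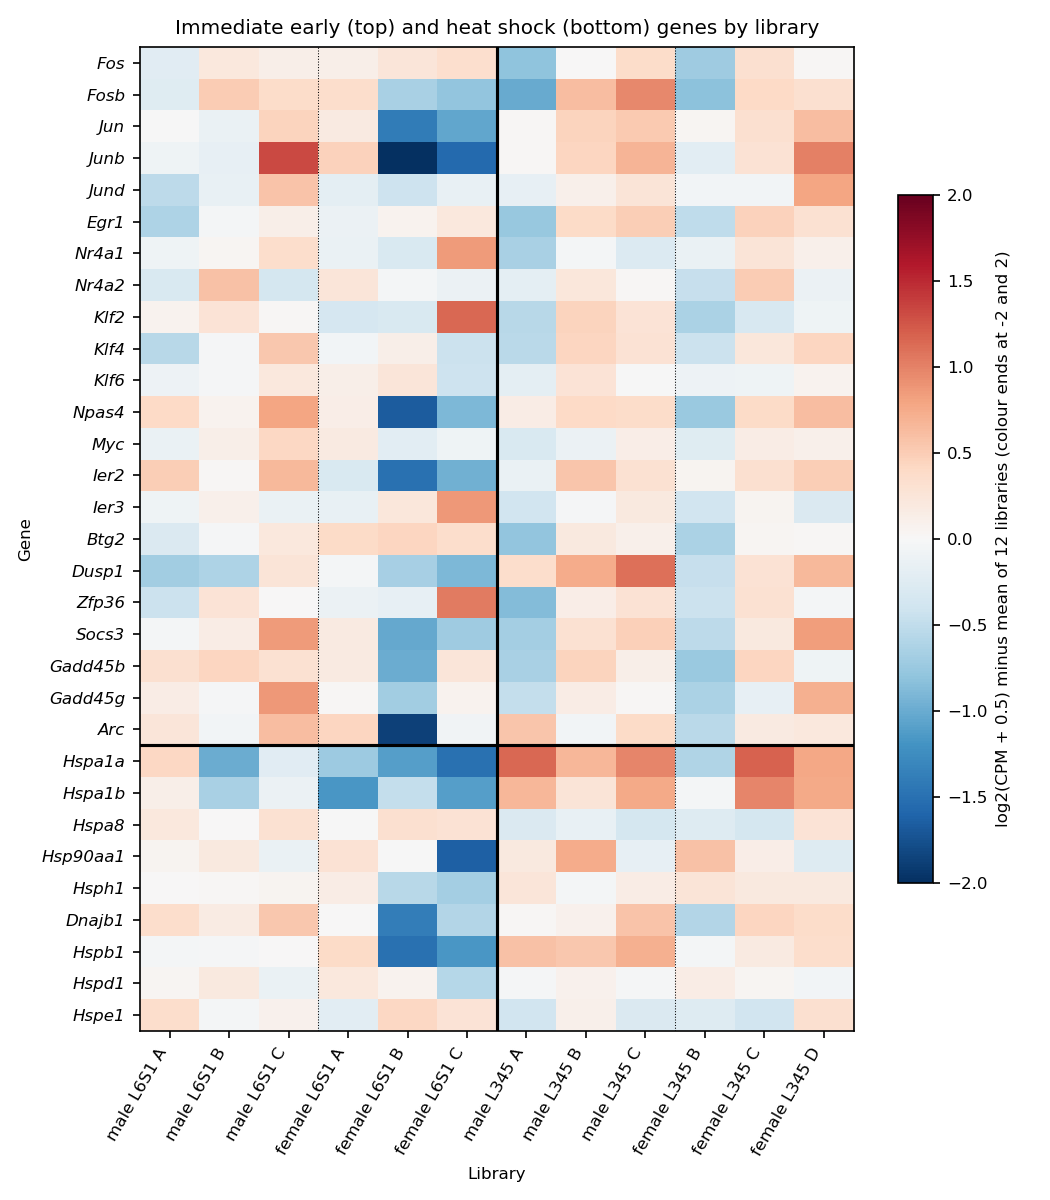
Each tested gene in every library as log2(CPM + 0.5) minus the mean of the 12 libraries, with L6S1 left and L345 right of the heavy vertical line and immediate early genes above heat shock genes. The columns of male L345 A and female L345 B are blue through most early genes, and those of female L6S1 B and C are dark blue in Junb and Hspb1. Hspa1a, Hspa1b and Dusp1 are among the rows with mostly blue left and mostly red right of the line.

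Spread between libraries was itself uneven. The biological coefficient of variation (BCV), the spread that remains after counting error, had a median of 0.289 over the 22 early genes and 0.279 over the 9 heat shock genes, against 0.225 over all genes tested, and 23 of the 31 lay above that middle value. Junb (0.50), Npas4 (0.44), Arc (0.42), Klf2 (0.42) and Fosb (0.39) had a BCV above that of 90.8% to 96.8% of all genes. Hspa8 (0.17), Hspd1 (0.18), Klf6 (0.18), Hsph1 (0.18) and Myc (0.18) were below the 22nd percentile. The ratio of the highest to the lowest library was 14.0 for Npas4 and 13.0 for Junb, and 1.60 for Hspa8 and 1.61 for Klf6.

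Levels can be set between genes only per length. As CPM per kilobase of the deposited gene length, averaged over 12 libraries, Hspa8 had 284 ± 52.7, Fos 150 ± 34.8, Dnajb1 97.3 ± 31.5 and Gadd45g 87.4 ± 30.4 (SD, n = 12), which put them at the 98.7th, 97.2nd, 95.4th and 94.8th percentile of genes tested. Hspa8 and Fos lay further apart than these SDs together, and Dnajb1 and Gadd45g lay within them. The inducible pair was far lower, Hspa1a at 2.48 ± 1.57 and Hspa1b at 1.04 ± 0.56, as were Egr1 at 10.4 ± 2.82, Arc at 1.15 ± 0.42 and Npas4 at 0.66 ± 0.31. The activity genes Arc and Npas4 stood at the 31.1st and 21.9th percentile.

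RefSeq gave promoter windows of 250 bases before and 50 after the start for 27 of the 34 genes. A heat shock element core, GAANNTTC or TTCNNGAA on either strand, was found in 6 of 7 heat shock genes (Hspa1a, Hspa1b, Hspb1, Hspd1, Hspe1 and Hsph1) and in 1 of 20 early genes (Jun), against 15.06% of 32851 windows of all genes. The 34 genes were scored by gene, over any window, and all genes by window. The 6 are not separate cases, since Hspa1a and Hspa1b matched in 247 of 250 bases and Hspd1 and Hspe1 start from a shared region. TGACGTCA occurred in Dusp1 and Btg2 (1.79% of all windows), the CArG box in Zfp36 (1.63%), and TATAAA in Fos, Junb, Nr4a2, Gadd45b and Gadd45g (13.62%). TGANTCA occurred in none of the 27 (7.81%). The core was thus present in Hspa1a and Hspa1b, which fell in L6S1, and in Hspb1, Hspd1, Hspe1 and Hsph1, which gave no call.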

How the data were processed

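RNA was measured in 12 libraries of sorted DRG neurons, 3 for each sex and level, each built from 10 ng of RNA by 12 rounds of PCR according to the protocols, per the labels. The authors deposited a count, a CPM and an RPKM for 41388 genes in each library. Per the submitters' processing notes, Subread and featureCounts 1.4.5 were run on GRCm38.p2. Each deposited CPM was the count over the table's total, and each deposited RPKM was the CPM divided by gene length, when recomputed; neither entered a test. The strand setting, the annotation release and the handling of reads with several matches are not given in the sources. The pool of male L345 C has 5 mice in its pool field and 3 in its protocol.

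Symbols came from GENCODE M21 (GRCm38) and matched 40254 genes (97.3%). Gene positions, gene lengths and exon overlaps were taken from the deposited tables. Counts were fitted with edgeR 4.0.16 in R 4.3.3 (TMM, filterByExpr by group, robust quasi-likelihood fit, 1 mean per group, 15281 genes, common BCV 0.239, 8 residual degrees of freedom). Contrasts were L6S1 minus L345 over both sexes and within each sex, female minus male, and the interaction (the level effect of females minus that of males). P-values were Benjamini-Hochberg adjusted over all genes tested, and a call was an adjusted p under 0.05. Nothing says that letters mark shared mice, and separate pools may share a preparation day, so p-values measure the spread between these pools only. The fit was tested on simulated data.

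The alternatives were DESeq2 1.42.0, limma-voom (limma 3.58.1) with quality weights for each library, scaling by RLE or by the upper quartile, a filter of 1 CPM in 6 libraries or none, a submission term, the 8 libraries of the first submission, a replicate block, a glial covariate, GC content and length offsets, female L6S1 B and C left out, and each library left out. Values in each library are printed for Fos, Egr1 and Dnajb1, and for genes called or with an unadjusted p under 0.05 except Hsph1 and Hspb1. For Hsph1 and Hspb1 the lowest, median and highest values of each level are printed. The same holds for the rest of the 2 largest changes of each role (Junb, Klf2, Npas4, Arc, Hspd1 and Hspe1). The genes and lists were chosen with earlier results of these data known. Floors of 3 counts cover counting error only, since reads carried no molecular identifiers.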

Additional observations from a re-analysis of the deposited data

Results flagged for a closer look

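Within the 6 libraries of a level, 7 values lay apart from the rest by Dixon's criterion for 6 samples, which chance meets in about 1 in 20 groups; 62 groups of 6 were looked at. In L6S1, male C was the highest for Jund at 11.2 CPM (others 4.96 to 6.64), female B was the lowest for Gadd45b at 3.78 CPM (others 9.21 to 10.96) and for Arc at 0.522 CPM (others 3.06 to 5.19), and female C was the lowest for Hsp90aa1 at 59.5 CPM (others 169 to 228). In L345, female B was the lowest for Npas4 at 0.937 CPM (others 2.17 to 3.19) and for Hspa1a at 3.79 CPM (others 9.74 to 14.1), and female D was the highest for Hspa8 at 1408 CPM (others 904 to 1046). For Hspa1a and Hspa8 the library that stands apart is the one that made the levels overlap. Without female L345 B the change of Hspa1a was -1.72 (edgeR adjusted p = 0.0057). Without female L345 D that of Hspa8 was 0.47 and passed the threshold (adjusted p = 0.038).

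Gadd45g, a growth arrest protein of the stress response, had a level effect of -0.24 in females and 0.47 in males. Its 3 female L6S1 libraries (59.9 to 103 CPM) lay below the mean of the female L345 libraries (103 CPM), and its 3 male L6S1 libraries (95.5 to 179 CPM) lay above that of the male L345 libraries (92.2 CPM), a difference of -0.71 between the effects. The interaction test gave an adjusted p of 0.871, so this difference did not pass.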

How the results depend on the processing

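Across 12 alternatives and 12 fits that left out 1 library each, the changes of Hspa1a and Hspa1b kept their negative sign, but the number of the 31 genes called between levels was 2 or 3 in 7 of the 12 alternatives and otherwise moved. With GC content and length offsets the 2 were Dusp1 and Hspa1b, not Hspa1a. It was 6 with limma-voom (2 up and 4 down, of 3268 genes called). With a submission term it was 1 (of 125 called among 15281 genes), and with the glial covariate 0 (of 64 among 15281). The first submission alone and the fit without female L6S1 B and C left only female L6S1 A in its group, so their counts are not given. Hspa1a and Hspa1b changed by -1.27 and -1.58 in the former and by -1.33 and -1.60 in the latter. In females the number was 3 with DESeq2 (of 752 called among 13590 genes) and 2 with no filter (256 of 26677). In males it was 4 with limma-voom (1864 of 15281). Leaving out 1 library each gave 0 to 9 calls between levels, 0 to 11 in females, 0 to 5 between the sexes and 0 to 5 for the interaction. The highest values each came from leaving out female L6S1 A, where 4031, 3843, 991 and 817 of 15683 genes were called in these 4 comparisons. The cause was not tested. The median change of the early genes ranged from -0.19 to 0.12 and that of the heat shock genes from -0.48 to -0.09 over all of these.

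Signs turned in these fits, among them those of genes with sizeable changes with all libraries (Klf2 0.50, Junb -0.50, Npas4 -0.49 and Jund -0.31). With upper-quartile scaling Hspd1 was 0.022. With limma-voom Fosb was 0.057 and Egr1 0.0026. With the submission term Klf6 was -0.0052, Gadd45g -0.030 and Hspd1 0.041. With the first submission alone Fosb was 0.091, Npas4 0.073, Zfp36 -0.043, Socs3 0.11, Arc 0.19 and Hspd1 0.095. With the glial covariate Fosb was 0.14 and Hspd1 0.089. With GC content and length offsets Jund was 0.43, Egr1 0.070, Klf4 0.16, Socs3 0.12 and Arc 0.12. Without female L6S1 B and C, Fosb was 0.053, Junb 0.065, Klf2 -0.010, Npas4 0.035, Zfp36 -0.025, Socs3 0.076, Arc 0.23 and Hspd1 0.086. Over the fits that left out 1 library each, Nr4a2 ranged from -0.24 to 0.22, Klf6 from -0.037 to 0.12, Gadd45g from -0.043 to 0.35, Hspd1 from -0.12 to 0.071, Arc from -0.43 to 0.11 and Zfp36 from -0.019 to 0.33. None of these genes was called in a fit where its sign turned.

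The labels do not say whether letters shared between groups pair the libraries. The 15 same-letter pairs had correlations of deviations of -0.20 to 0.31, with 7 over 0.1. Pairs of other letters had -0.33 to 0.34, and 5 of 12 libraries correlated best with their own letter. Whether libraries of a letter shared an effect was not tested further. With a replicate block 3 of the 31 genes were called (1 up, Hspa8, and 2 down). In all, 1985 genes were called with the block, against 356 without it. The block set aside female L345 D, the only library of its letter, and leaving that library out gave 883 calls without a block. With the block Egr1 was 0.023, Nr4a2 -0.015, Klf4 0.057 and Socs3 0.0064. The summed Hspa1a and Hspa1b counts, added after seeing the data, gave -1.35 (adjusted p = 0.24) with the first submission alone and -1.39 (adjusted p = 0.147) without female L6S1 B and C. Depth limits Egr3, Nr4a3 and Ier5, which lay at or near the floor.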
